A study of Rattus norvegicus with 2 samples.

Results

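The endocannabinoid genes followed here are Cnr1, which encodes the cannabinoid receptor CB1, and the genes of the enzymes that make and break down its lipid ligands: Dagla, Daglb, Mgll, Abhd6, Napepld and Faah. These 7 genes were chosen by name, and 6 of them had a probe whose RefSeq accession matched a gene table, out of 16579 named genes on the array. No probe carried the accession that the table lists for Faah, which encodes the main anandamide-degrading enzyme, so Faah is not analysed here. The table named 46.3% of the array's 45598 rat transcript probes, and a Faah probe under an accession that the table does not hold would be among the unnamed ones, so Faah was not shown to be missing from the array. RNA came from the dissected hypothalamus of SHR, a rat strain bred for high blood pressure, with males and females taken at 9 weeks of age. All rats of both groups were of this strain and were decapitated under ether, and the labels name no other agent. Each sex was 1 pool of 100 ng RNA from each of 5 rats on 1 single-colour array, so the spread between animals is not in the data, no p-value can be given, and what follows holds for these 2 pools alone. In bulk RNA, fewer cells of a type and less RNA per cell cannot be told apart.

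Endocannabinoids are lipid messengers that neurons make on demand and that travel backwards across the synapse. CB1, a receptor coupled to inhibitory G proteins, sits mainly on axon terminals, where its activation reduces transmitter release. The ligand 2-arachidonoylglycerol (2-AG) is made by diacylglycerol lipases and cut by monoacylglycerol lipase and by ABHD enzymes, whereas anandamide can be released by the phospholipase NAPE-PLD and is cut by FAAH. In the hypothalamus this signalling is known for its part in feeding and in stress hormone control.

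Of 12 hypothalamic marker genes looked at first, 11 passed the background flag in both pools. Among these 11, 7 were lower and 4 higher in the males, with a median difference of -0.03. Passing the flag does not by itself tell the hypothalamus from its neighbours, since all 7 markers of striatum and amygdala passed it too. Pmch, the melanin-concentrating hormone precursor, stood at 4522% (male pool) and 5079% (female pool) of the array's 75th percentile of spot signal, and Avp, the vasopressin precursor, at 3103% and 2813%. Otp, a regulator of neurosecretory cell fate, passed the flag on the female array alone. The 75th percentile itself was 2203 scanner units for the males and 2254 for the females, and 71.6% and 73.0% of rat transcript spots were well above background, a flag set by the scanner software.

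All 6 measured endocannabinoid genes were well above background in both pools, and none differed by as much as 1.2-fold. Cnr1, Dagla, Daglb and Abhd6 read slightly lower in the male pool, and Mgll and Napepld slightly higher. The largest gap was that of Cnr1, at 86.8% of the female level. Each difference lay within 2 technical SD of 0, where the technical SD is the spread of a male minus female difference between repeat spots of a probe, at the gene's own signal range. It covers spot printing and scanning, not animals, pools or arrays. Each gene rested on 1 probe printed at 1 spot, so none has a second probe of its own as a check.

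**Figure D1:**
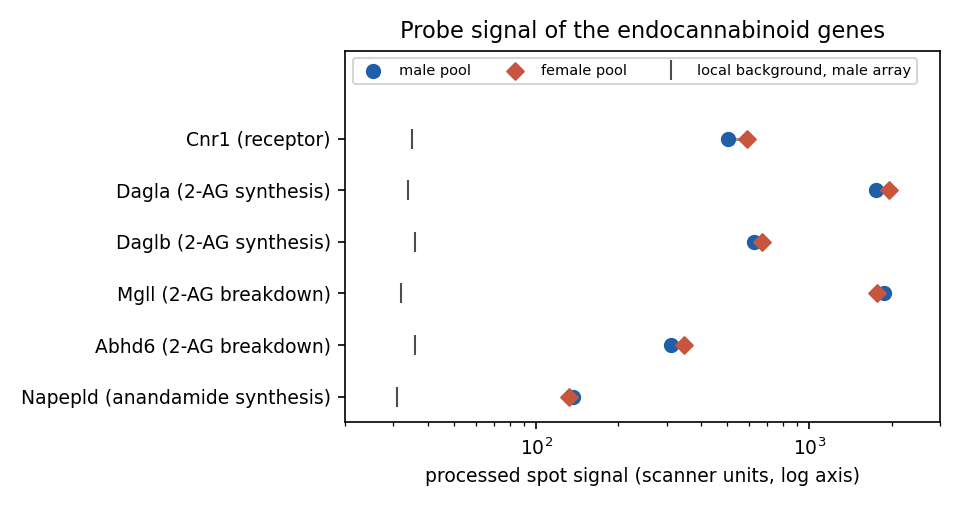
Processed spot signal of the 6 measured endocannabinoid genes in scanner units (log axis, background subtracted, no scaling between arrays), with the male pool as circles, the female pool as diamonds and the local background of the male array as ticks. The symbols of a gene nearly touch, and the signals run from 132 units for Napepld to 1951 units for Dagla, all to the right of the background ticks.

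The receptor gene Cnr1 gave 502 units in the males and 592 in the females, over a local background of 35 units on both arrays. Relative to the 75th percentile of their own arrays these were 22.8% and 26.3% of that percentile. The log2 difference, always male minus female, was -0.20 with a technical SD of 0.12, and the range of 2 technical SD on each side ran from 73.4% to 103% of the female level. The male reading was the lower, by a gap inside that range of spot error. Of 10796 genes and transcripts in the same range of signal as the endocannabinoid genes, 12.3% lay farther from 0 than Cnr1. Its probe ranked at percentile 74.7 of brightness among the males' probes and 76.1 among the females', the largest shift of rank among the 6. Such a rank depends on the probe's sequence as well as on the amount of transcript, so it is read here only for the same probe across pools.

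The enzymes that make 2-AG read close in the pools. Dagla, which encodes the diacylglycerol lipase that supplies most 2-AG at adult brain synapses, gave 1758 units in the males and 1951 in the females. Its difference was -0.12 with a technical SD of 0.085, and its brightness percentile was 87.0 and 87.6. Daglb, which encodes the second diacylglycerol lipase, gave 628 and 672 units, with a difference of -0.06 and a technical SD of 0.085. Its percentile was 77.1 (male pool) and 77.5 (female pool). For both lipase genes the male level was the lower, by less than 2 technical SD. The range of 2 technical SD spanned 81.9% to 104% of the female level for Dagla and 85.0% to 108% for Daglb.

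The genes for 2-AG breakdown went in opposite directions, each within its spot error. Mgll encodes monoacylglycerol lipase, the enzyme that ends most 2-AG signalling in the brain. It gave 1873 units in the males and 1766 in the females, a difference of 0.12 with a technical SD of 0.085. Its male level was 109% of the female level, with a range of 96.4% to 122%, and its percentile was 87.6 and 86.7. Abhd6, which encodes a membrane hydrolase that cuts 2-AG on the postsynaptic side, gave 311 and 347 units. Its difference was -0.13 with a technical SD of 0.12, and its range was 77.5% to 108% of the female level. The Abhd6 percentile was 69.2 (male pool) and 70.2 (female pool).

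Napepld encodes NAPE-PLD, which releases anandamide and related lipids from membrane phospholipids. Its signal was the closest to background of the 6, at 136 units for the males and 132 units for the females, which is 4.40 and 4.13 times the local background. The difference was 0.08 with a technical SD of 0.20, and the range of 80.1% to 140% of the female level was the widest of the 6. The brightness percentile was 59.3 (male pool) and 58.8 (female pool).

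**Figure D2:**
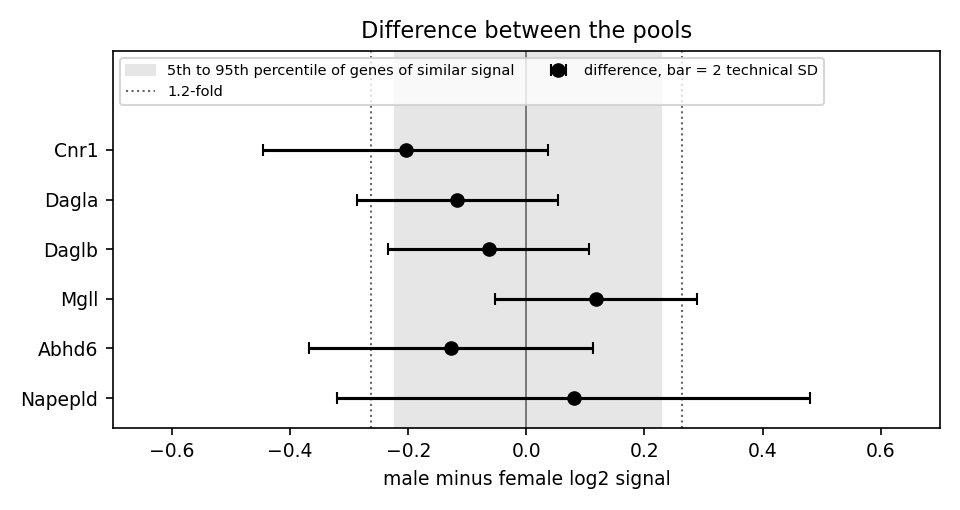
Male minus female log2 signal of each measured endocannabinoid gene after scaling to the 75th percentile, with bars of 2 technical SD from repeat spots. Dotted lines mark 1.2-fold, and the grey band spans the 5th to 95th percentile of 10796 genes and transcripts of similar signal (-0.22 to 0.23). All 6 points lie inside the band and all 6 bars cross 0.

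Over the 6 genes the median difference was -0.09, against -0.025 over the 10796 genes and transcripts of similar signal and -0.016 over all 24140 on both arrays. The male level was the lower for 4 of 6, against 58.7% of the genes of similar signal and 55% of all genes. The count of 0 of 6 at least 1.2-fold apart stood against 12.9% of all genes and 7.1% of those of similar signal. The count of 0 of 6 beyond 2 technical SD stood against 12.1% and 12.5%. These backgrounds depend on the processing. Over all genes they were 4.92% and 3.93% with normexp background correction, which adds an offset to the median spot signals. Without the filter on dim probes, 34.4% of 39500 genes and transcripts were 1.2-fold apart. The count among the 6 was 0 each time, but all 6 pass that filter, so dropping it could not change their count. With 6 genes, counts of 0 are close to the backgrounds at similar signal. They set the endocannabinoid genes apart from nothing else on the array.

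A comparison of the genes with each other is free of a constant shift of one array, which moves all genes alike. It is not free of quantile normalization, which changed the gap between Mgll and Cnr1 from 0.322 to 0.335. Of the 15 pairs among the 6 genes, 1 (Mgll and Cnr1) differed by more than 2 technical SD, against 14.3% of all pairs of genes and transcripts in this signal range, so a single such pair does not set these genes apart. The male to female ratio of Mgll was 1.25 times that of Cnr1, a log2 gap of 0.32 with a technical SD of 0.15. No pair passed 2 technical SD with normexp, where this gap was 0.33 with a technical SD of 0.28, or with outlier-flagged spots kept, where the technical SD was 0.19. Between Mgll and Dagla, the genes for breakdown and synthesis of 2-AG, the gap was 0.24 with a technical SD of 0.12, just under 2 technical SD. Dagla and Abhd6 were the closest pair, with a gap of 0.01. The Mgll and Cnr1 pair is the widest of the 15, since these genes hold the ends of the order of differences, and no correction for choosing it was made.

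**Figure D3:**
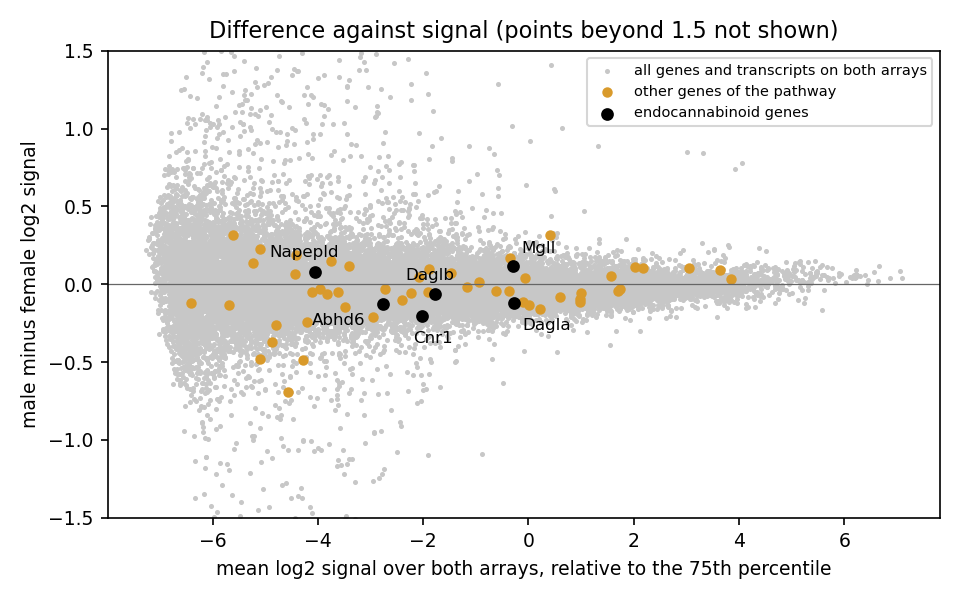
Male minus female log2 signal against mean log2 signal relative to the 75th percentile, for 24140 genes and transcripts well above background on both arrays (grey), the other genes of the pathway (orange) and the endocannabinoid genes (black, named). The cloud widens towards low signal, all 6 named genes lie within it near 0, and 239 genes beyond 1.5 on the vertical axis are not drawn.

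Markers of cell types moved between the pools by amounts of the same order as the endocannabinoid genes, or larger. Of 14 neuronal markers, all well above background, 12 were lower and 2 higher in the males. Their median difference was -0.08, with a summed level of 4144% of the 75th percentile in the male pool against 4416% in the female pool. All 10 oligodendrocyte markers were higher in the males, at a median of 0.16 and sums of 17522% and 16173%. All 9 measured markers of astrocytes and tanycytes were also higher, with a median of 0.11, while Rax, a tanycyte regulator, was not above background. Sums over all 10, Rax included, were 4887% and 4483%. The 10 meningeal fibroblast markers were all higher, with a median of 1.25 and sums of 458% and 180%, and no neuronal, oligodendrocyte or meningeal marker was at background on both arrays. Markers of the vessels and blood were mostly higher in the males as well. The 4 red blood cell markers measured on both arrays were all higher, with a median of 0.86. Sums over all 5 matched red blood cell markers were 180% and 101%. Endothelial markers were higher for 7 of 8, with a median of 0.23. Of the microglial markers 7 of 9 were higher (median 0.08), and of those of choroid plexus and ependyma 4 of 5 (median 0.25).

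Genes of regions beside the hypothalamus also differed. Of the 7 markers of striatum and amygdala 6 were lower in the males, with a median of -0.16 and sums of 355% and 391%. Among 5 pituitary markers measured on both arrays 4 were higher, with a median of 0.35. Cga, the shared hormone subunit gene, stood at 84.9% of the 75th percentile in the males and 20.8% in the females, on a spot in a patch, an area in which 2 or more of the 18 closest measured spots of unrelated probes were also 2-fold or more apart in 1 direction. Tshb, the thyrotropin subunit gene, stood at 11.7% and 0.939%, outside patches. Prl, the prolactin gene, passed the background flag in the female pool alone, at 5.43% of the percentile and on a spot in a patch, while Gh1 and Fshb passed it in neither. The 4 measured cortex and hippocampus markers split evenly (median -0.03), and 2 of 3 thalamic markers were higher (median 0.0043). The part of these cell types and regions in the endocannabinoid differences was not tested.

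The wider pathway was followed on 61 other genes in groups by role, of which 58 had a matched probe and 50 were well above background on both arrays. Of these 50, 20 were higher and 30 (60%) lower in the males, against 55% lower among all genes, and the median difference was -0.04. At least 1.2-fold apart were 6 (12%), against 12.9% of all genes, and beyond 2 technical SD were 8 (16%), against 12.1% of all genes. In the male direction these shares were 4% and 8%, against 7.15% and 6.09%, and in the female direction 8% and 8%, against 5.74% and 6.02%. With this scaling the pathway counts lay near the background of the arrays. They moved with the processing, as did the shares of all genes. Normexp left 2 genes (4%) 1.2-fold apart, against 4.92% of all genes, and 0 beyond 2 technical SD, against 3.93%. Median centring gave 12 (24%) beyond 2 technical SD, against 14.0% of all genes. Keeping outlier-flagged spots gave 5 (10%), against 8.88%. Without the dim filter 13 of 58 (22.4%) were 1.2-fold apart, against 34.4%. Gpr55, Sgip1 and Pla2g4e had no matched probe and are not analysed here.

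Among receptors for these lipids, Cnr2, the gene of the CB2 receptor of immune cells, was near background at 24.8 units (male pool) and 27.5 units (female pool). The capsaicin receptor gene Trpv1, whose channel anandamide can open, gave 40.9 and 45.9 units. Their differences of -0.12 and -0.13 were under 1 technical SD. The nuclear receptor gene Pparg gave 50.2 and 41.2 units, a difference of 0.32 with a technical SD of 0.20, and 0.15 with normexp. Gpr18 and Gpr119 were not well above background in either pool. Cnrip1, whose product binds the tail of CB1, gave 1414 and 1491 units and differed by -0.04.

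Lipid carriers that bring anandamide to its enzymes inside the cell were bright, and Fabp7 and Fabp5 were higher in the males by more than 2 technical SD. With Scp2, 3 of 4 read higher, against 45% of all genes. Fabp7, the fatty acid binding protein gene of astrocytes and radial glia, gave 3279 units in the males and 2692 in the females. Its difference of 0.32 was 4.47 technical SD from 0, on a single spot. Fabp5, a carrier gene of neurons and glia, gave 18971 and 18059 units over 9 spots. Its difference was 0.10, with the male reading higher on 9 of 9 spots, 1 of them in a patch. Its technical SD of 0.024 is small because it averages 9 spots, which are copies of 1 probe on the same 2 arrays. Of all genes, 42.7% lay farther from 0 than Fabp5, and 9.41% farther than Fabp7. The second Fabp5 probe was also at 0.10. Fabp3 and Scp2 differed by -0.02 and 0.03, both under 1 technical SD. The higher male level of Fabp7 stands beside the 9 of 9 astrocyte and tanycyte markers that were higher in the male pool, and their part in it was not tested.

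Other enzymes around anandamide and 2-AG went both ways. Gdpd1, whose product is a phosphodiesterase on an alternative route to anandamide-like lipids, gave 95.5 units in the males and 137 in the females. Its difference of -0.48 was 2.42 technical SD from 0, and -0.18 with normexp. Plaat3, which encodes a phospholipase and acyltransferase, gave 10262 and 9762 units, with a difference of 0.11 and the male reading higher on 10 of 10 spots. These spots are copies of 1 probe on the same 2 arrays, and 1 of them lay in a patch. Of all genes, 42.6% lay farther from 0 than Plaat3. Abhd4 and Gde1, listed on other routes to and from anandamide, were at 0.11 and 0.05. Abhd12, listed with the breakdown of 2-AG, was at -0.03, and each of the 3 was under 2 technical SD. Naaa, an acid amidase gene, was at -0.24 with a technical SD of 0.20. Among the phospholipase C genes that supply the 2-AG precursor, Plcb1, Plcb3 and Plcb4 lay between -0.05 and 0.08, and Plcb2 was too near background to compare.

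Of the oxidising enzymes, only Alox5, a lipoxygenase gene, was measured on both arrays, at 173 and 160 units over 2 spots and a difference of 0.15. Ptgs2 and Alox15 were not well above background in either pool. Alox12 gave 7.17 units in the male pool, not well above background, and 280 units in the female pool. The male level was set to a floor of 15.1 units, the lowest mean log2 signal of a male probe that passed the background flag. The female level was then 18.1-fold higher, and 3.81-fold with normexp. The first value is thus not a lower bound under every processing. The single Alox12 spot lay in a patch. The spots of all 6 endocannabinoid genes lay outside patches.

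The 15 genes listed for CB1 coupling encode G proteins, arrestins, receptor kinases and channels. Among them 9 (60%) were lower and 6 higher in the males, near the 55% lower among all genes, and their median was -0.06. Gnao1, the abundant inhibitory G protein gene of neurons, was at -0.06 on its brighter probe and at 0.06 as the mean of its 2 probes, and Gnai2 was at 0.09. Gnai1, another inhibitory G protein gene, gave 66.1 and 87.5 units, a difference of -0.37 that was within 2 technical SD and was -0.07 with normexp. Kcnj3, which encodes a subunit of the potassium channel that CB1 can open, gave 1842 and 1674 units. Its difference of 0.17 was 2.01 technical SD from 0, and lay within 2 technical SD at 0.14 with median centring. Cacna1b, the N-type calcium channel gene whose channel CB1 can close, was at -0.11 with a technical SD of 0.085.

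Of 12 genes upstream of 2-AG release, 8 (66.7%) were lower and 4 higher in the males, against 55% lower among all genes and 58.7% at similar signal, and their median was -0.11. The 4 higher genes, Gna11, Homer1, Homer2 and Camk2a, do not encode receptors. The receptors in the group act through the G protein Gq, which starts phospholipase C. Gnaq itself gave 73.6 units in the males and 122 in the females, a difference of -0.69 on a spot in a patch, and -0.32 with normexp. Hcrtr2, the second orexin receptor gene, gave 54.4 and 77.9 units, a difference of -0.48 at 2.41 technical SD, and -0.18 with normexp. Htr2c, a serotonin receptor gene, gave 2416 and 2766 units, a difference of -0.16 at 2.27 technical SD, and -0.17 with normexp. Grm5, a metabotropic glutamate receptor gene whose product drives 2-AG synthesis, was at -0.14, under 2 technical SD. The Grm5 spot lay in a patch, and its second probe, outside patches, was at 0.02. Chrm1, a muscarinic receptor gene, lay on a spot in a patch. It gave 3.85 units in the male pool, not well above background, and 95.2 units in the female pool. Against the floor used for Alox12 the gap was 6.15-fold, and with normexp it was 2.13-fold.

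**Figure D4:**
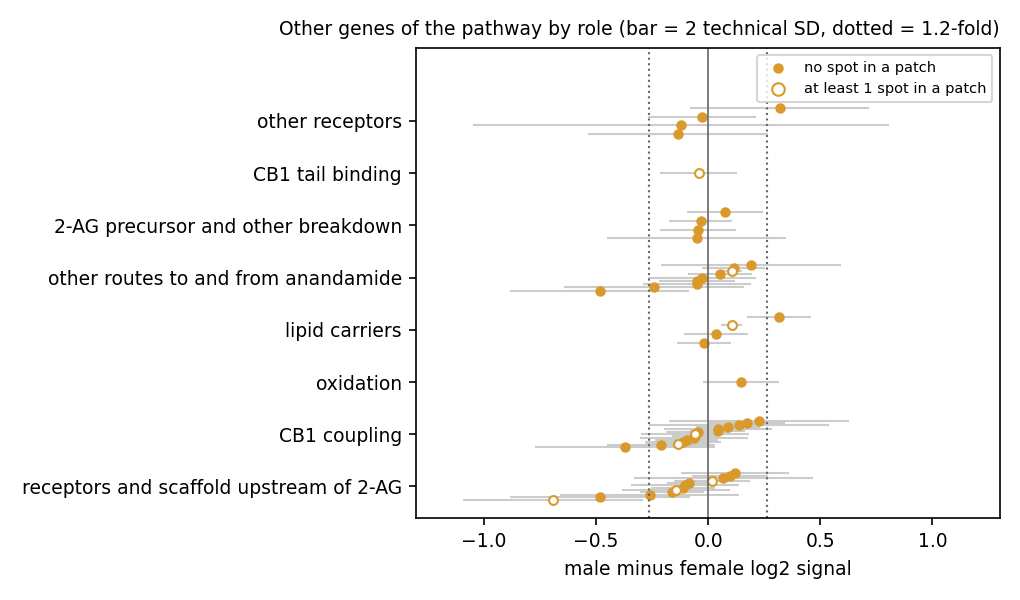
Male minus female log2 signal of the 50 other pathway genes well above background on both arrays, grouped by role, with bars of 2 technical SD. Open circles have at least 1 spot in a patch, and dotted lines mark 1.2-fold. Most points lie between the dotted lines, with 2 to the right and 4 to the left of them.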

How the data were processed

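RNA of 1 hypothalamus pool per sex was hybridised to 1 single-colour (Cy3) Agilent array each. The deposited array files hold the scanner software's processed signal, a background-subtracted intensity with no scaling between arrays. Per the file headers the software was Feature Extraction 11.5.1.1, whereas the submitters' processing notes name version 9.1. The deposited series matrix intensity matched the processed signal as a percentage of each array's 75th percentile, and served as an alternative.

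The 75th percentile was taken over all 58717 rat transcript spots, and 664 spots that the software flagged as outliers were then dropped. Log2 signals were centred on that percentile and averaged over a probe's spots, and the brightest probe stood for a gene. RefSeq accessions were named through a GRCr8 gene table, which named 46.3% of 45598 probes. A probe with more than 50% of spots well above background was measured. The technical SD came from probes with at least 8 repeat spots, by signal bin. Functions were tested on simulated data. Alternatives were normexp (limma 3.58.1, offset 50, on the median signals, since the mean signal is not used here), median centring, quantile normalization, the mean over probes, no dim filter, no spots in patches, flagged spots kept and the series matrix. The named genes were all endocannabinoid genes, every pathway gene at least 1.2-fold apart and otherwise the largest difference per role. Other genes named for their role, or for lying beyond 2 technical SD, were chosen after their values were seen. The genes and lists were chosen with earlier results of these data known.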

Additional observations from a re-analysis of the deposited data

How the results depend on the processing

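Across the 8 alternatives, the direction of all 6 endocannabinoid genes stayed as reported, none reached 1.2-fold and none passed 2 technical SD. Only normexp, median centring and quantile normalization could change these differences. Each gene had 1 probe at 1 unflagged spot outside patches, so the settings for probes, dim filter, patches and flags left its difference fixed. The series matrix holds the same signal rescaled. Their median difference ranged from -0.12 with median centring to -0.06 with normexp, and Cnr1 from -0.24 to -0.18. The median brightness percentile was 76.3, and 64.8 in the series matrix, which lists fewer dim spots. The median of the other pathway genes, -0.04, was -0.073 with median centring, which lowers every gene alike, and nearer 0 with the mean over probes (-0.023), normexp (-0.025) and without patches (-0.029). The count of 1 pair beyond 2 technical SD was 0 with normexp and with outlier flags kept, settings applied to the pairs after seeing the data. Of 443 values of single genes under alternatives, 13 moved by more than 1 technical SD, and none of the genes beyond 2 technical SD changed sign. Gdpd1, Gnai1, Hcrtr2, Gnaq and Alox5 (0.06) moved towards 0 with normexp. That setting adds an offset and starts from the median signals, and the part of each was not tested. Not every dim difference shrank with it, as Napepld went from 0.08 to 0.12. Plcb1, at 0.08 on its brightest probe, was at -0.07 over the mean of its 3 probes, and Ppara went from -0.03 to 0.20 and Arrb1 from -0.04 to 0.09 in the same way. Fabp5 and Plaat3 stood at 0.07 with median centring. Signal over background limits Napepld most. No paired analysis was possible because each sex had 1 pool.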

Other observations

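Since each endocannabinoid gene had a single probe, the precision of 1 probe was described on other genes. Among 840 named genes with at least 2 measured probes in the same signal range, the male minus female differences of the brightest 2 probes lay a median of 0.084 apart. The gap was over 0.2 for 16.7% of these genes and beyond 2 technical SD for 7.38%, and the probes had opposite signs for 37.3%. Within the pathway, Gnao1, the neuronal inhibitory G protein gene, was at -0.06 on its brighter probe (2 spots) and at 0.18 on the other. Kcnj6, a potassium channel subunit gene, was at -0.06 and 0.17, with technical SDs of 0.12 and 0.20. Both genes are examples of opposite signs. Other pathway genes had 2 probes of the same sign, such as Chrm3 (-0.08 on both) and Gnai2 (0.09 and 0.05).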
